A study of Mus musculus with 24 samples.

Results

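The villus tip, zone V6, was compared with the most bottom villus zone, V1, of the mouse jejunum, over all genes. The comparison used 8 of the 24 libraries of the series, the 4 of V6 and the 4 of V1, chosen by the zone in their labels and paired by mouse number. Both groups came from the same 4 male C57BL/6 mice, aged 10 weeks, fed regular chow and killed by cervical dislocation. The labels name no allele, transgene or agent for either group. Jejunal cells were stained with antibodies against CD73 and CD26 to place them along the villus, and each zone of each mouse was sorted by FACS into 1 bulk library. Polyadenylated RNA was read with mcSCRB-seq, which counts each captured molecule once by its unique molecular identifier (UMI). A zone here is therefore a sorting gate on surface proteins, not a dissected slice, and the labels name no gate against cells other than enterocytes. The other zones, V2 to V5, served to estimate the spread, and V4, a middle zone, to split the axis.

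The villus is a finger-like fold whose epithelium is renewed from the crypts at its foot. Cells move up as they age, take up nutrients through the brush border of their apical surface, and are shed at the tip. Most are absorptive enterocytes. Goblet cells, which secrete mucus, enteroendocrine cells, which release hormones, and rarer tuft cells travel among them, while stem, dividing and Paneth cells belong to the crypt.

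V6 libraries held 1274084 to 1989404 UMIs and V1 libraries 1490213 to 1602022. Of 17811 genes in the table, 9328 had enough UMIs to be tested. Genes with at least 1 UMI numbered 13502 to 14017 in V6 and 13769 to 14181 in V1. Mitochondrially encoded transcripts took 8.10% ± 1.21 of the UMIs in V6 and 3.31% ± 0.886 in V1 (SD, n = 4 each; two-sided exact permutation test over the 4 pairs, p = 0.125, the smallest that 4 pairs allow). On the first principal component of all 24 libraries, which held 39.8% of the variance, V6 lay above V1 by 93.8, 82.6, 74.3 and 65.0 units in mice 1, 2, 3 and 4. No 2 libraries of a zone were copies of each other, since the chi-square of their counts was at least 6.78 per degree of freedom. In the deposited sample sheet, V1 of mouse 2 carries the index label of mouse 1's libraries and V6 of mouse 2 carries another, so this pair spans 2 index labels.

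The level of a gene is written as CPM, its UMIs per 1000000 UMIs of the library after TMM scaling. Differences are log2 of V6 over V1 with their standard error, from edgeR's quasi-likelihood test with mouse as a block. A gene rose or fell where the Benjamini-Hochberg adjusted p over the 9328 genes was under 0.05. CPM counts molecules at their tail end and is not divided by transcript length, so levels of different genes are not compared as amounts per length.

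Both proteins of the sort gave a check of the labels and are no finding. Nt5e, the gene of CD73, had 446, 186, 296 and 148 CPM in V6 of mice 1, 2, 3 and 4, against 1.58, 1.72, 1.24 and 0 CPM in V1, with no overlap (log2 difference 7.80 ± 0.32, adjusted p = 1.7e-17). Transcripts of Dpp4, which encodes CD26, averaged 437 ± 64.2 CPM in V6 and 147 ± 42.4 in V1 (SD, n = 4 each; 1.60 ± 0.15). The cells of both groups carried enterocyte transcripts. Of the enterocyte markers, 13 of 14 tested genes rose and 0 fell (median 1.72; 14 listed), and their summed level was 91698 ± 13668 CPM in V6 and 19804 ± 7335 CPM in V1 (SD, n = 4 each). Sis, the brush-border sucrase gene of this list, did not pass, at 644 ± 40.4 CPM in V6 and 497 ± 320.4 in V1 (SD, n = 4 each).

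Goblet cell transcripts made up much more of V1. Their summed level was 10946, 12349, 10602 and 16901 CPM in V6 of mice 1, 2, 3 and 4, against 51022, 99727, 98500.1 and 58524 CPM in V1, so the groups lay far apart in every mouse. The sum of the enteroendocrine list was 6738 ± 1769 CPM in V6 and 2484 ± 382 CPM in V1 (SD, n = 4 each), and that of leukocyte markers 424 ± 65.0 CPM in V6 and 170.0 ± 53.5 CPM in V1. Stem and crypt transcripts summed to 1747 ± 193 CPM in V6 and 2309 ± 163 CPM in V1. Each of these sums differed in the same direction in 4 of 4 mice (two-sided exact permutation test, p = 0.125 each). Paneth cell transcripts, at 13751 ± 6145 CPM in V6 and 19331 ± 8719 CPM in V1, were higher in V6 in 2 mice and lower in 2 (p = 0.625, exact permutation test), and tuft cell transcripts, at 127 ± 47.3 CPM in V6 and 119 ± 17.8 CPM in V1, likewise (p = 0.875, exact permutation test). Stromal and endothelial transcripts stayed near the floor, at 15.6 ± 3.23 CPM in V6 and 11.4 ± 1.34 CPM in V1. In bulk samples, fewer cells of a type and less RNA of that type per cell cannot be told apart. Where a gene group moved with these sums, their part in the result was not tested.

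**Figure D1:**
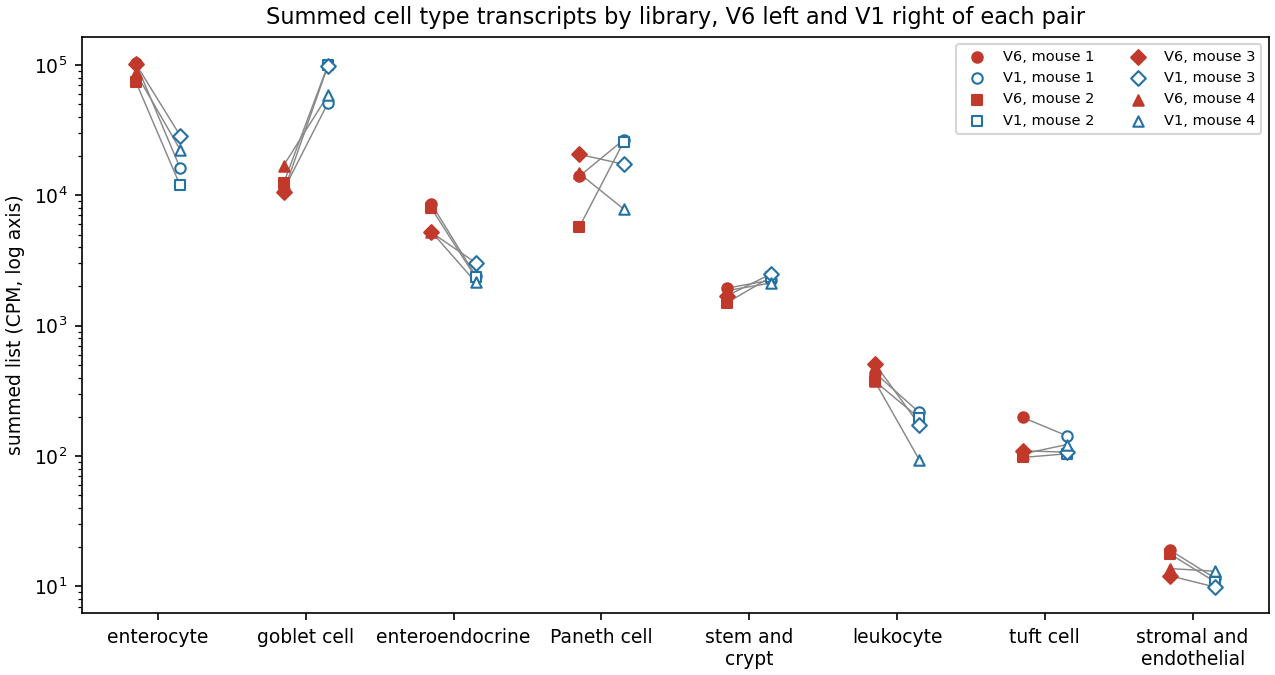
Summed CPM of 8 cell type lists in each library on a log axis, with V6 (filled) left and V1 (open) right of each pair and a line joining the libraries of 1 mouse. Enterocyte, enteroendocrine and leukocyte sums were higher in V6 in all 4 mice, goblet and stem and crypt sums lower, and Paneth and tuft sums crossed.

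In edgeR's quasi-likelihood test 4791 of the 9328 genes differed between V6 and V1 (51.4%), 2488 of them higher in V6 (26.7%) and 2303 lower (24.7%). These shares, with a median log2 difference of 0.0018 over all tested genes, are the background against which each gene list stands. At least 2-fold changes counted 1214 genes higher (13.0%) and 980 lower (10.5%). Very large changes ran upward: 86 genes were at least 8-fold higher in V6, and 1, Gip, was at least 8-fold lower. In 2240 of the 2488 genes that rose, V6 was above V1 in all 4 mice, and in 2106 of the 2303 that fell it was below in all 4. The 4 V6 and 4 V1 libraries did not overlap for 1667 genes higher in V6 (17.9%) and 1537 lower (16.5%). Mouse 1 had the widest separation and mouse 4 the narrowest, with median per-mouse differences of 1.13 and 0.80 over the genes that rose, and -0.97 and -0.73 over those that fell. Without mouse 2, whose pair spans 2 index labels, 2205 genes rose and 2156 fell. Scaling by total UMIs in place of TMM shifted the median of all genes to -0.34 and left 1525 higher and 3789 lower, so that 28.7% of changed genes were higher in place of 51.9%. Changes are reported relative to the TMM scale.

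**Figure D2:**
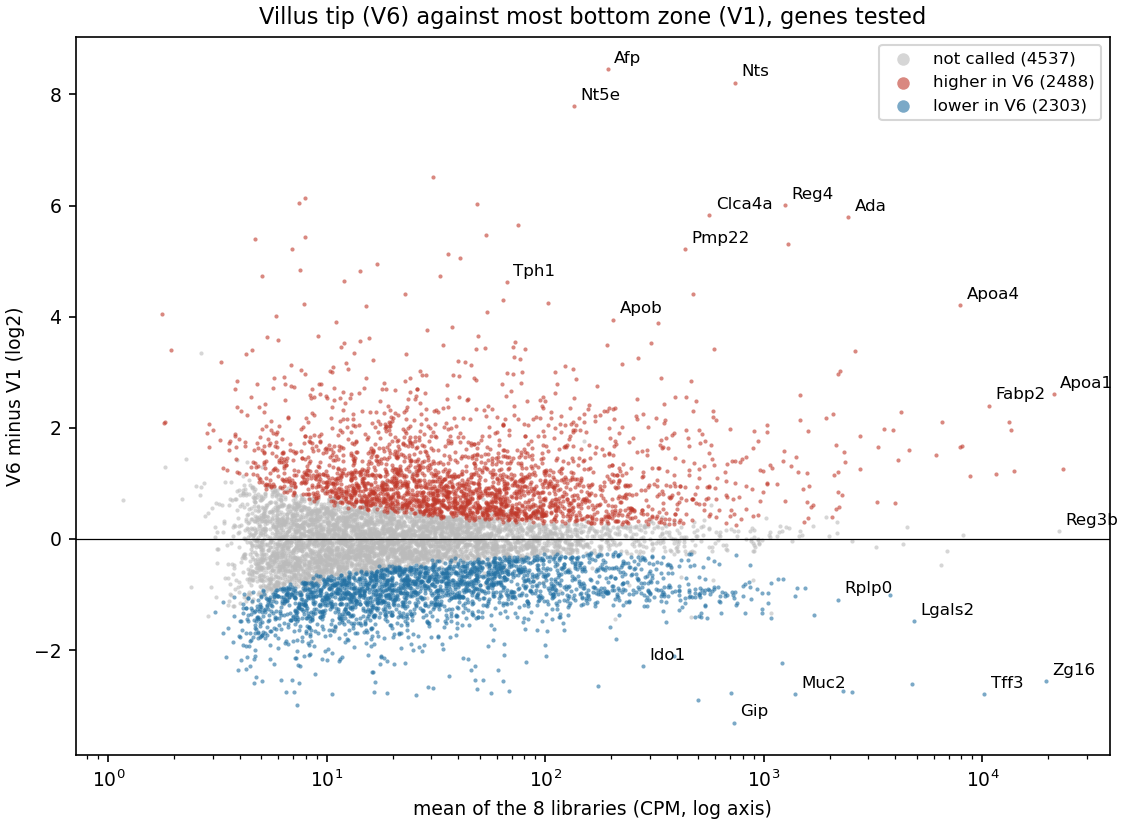
Log2 difference of V6 minus V1 against the mean CPM of the 8 libraries (log axis), 1 point per tested gene, coloured where the adjusted p was under 0.05. The rises reach past a log2 of 8 (Afp, Nts), while the deepest fall is that of Gip at -3.31.

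Among genes averaging at least 50 CPM over the 8 libraries, provisional symbols left out, the largest rises were led by genes with almost no transcript at the bottom. Afp, the gene of alpha-fetoprotein, a serum protein of the fetal liver and gut, had 419, 611, 341 and 174 CPM in V6 of mice 1, 2, 3 and 4, against 3.16, 0, 0.619 and 0.595 CPM in V1. The lowest V6 library was 55.0-fold above the highest V1 library. Its log2 difference was 8.45 ± 0.75 (adjusted p = 1.2e-07), at chromosome 5, 90490737 to 90508907 (GRCm38). Reg4, a secreted lectin of the Reg family, had 4455, 2799.8, 1496 and 1143 CPM in V6 of mice 1, 2, 3 and 4, against 51.1, 35.5, 44.5 and 17.2 CPM in V1. The groups did not overlap, and the difference was 6.01 ± 0.63 (adjusted p = 7.0e-07). Also among the 15 largest rises of such genes, all higher in V6 in each of the 4 mice, were Clca4a (5.83 ± 0.26), of a family of calcium-activated chloride channel regulators, Gprc5a (5.66 ± 0.27), an orphan receptor gene, and Pmp22 (5.22 ± 0.30), known for the myelin and junction protein it encodes. Clca4a averaged 1106 ± 447 CPM in V6 and 20.6 ± 14.0 in V1 (SD, n = 4 each), and its neighbour Clca4b 663 ± 54.9 CPM in V6 and 118 ± 37.3 in V1 (2.55 ± 0.14). How reads shared by such close copies were counted is not given in the sources used here, so their separate values are uncertain. Susd2, a membrane protein gene, had 122 ± 37.0 CPM in V6 and 6.11 ± 1.97 in V1 (4.30 ± 0.25). Nts, Tph1 and Chga, of the same 15, are genes of enteroendocrine cells.

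**Figure D3:**
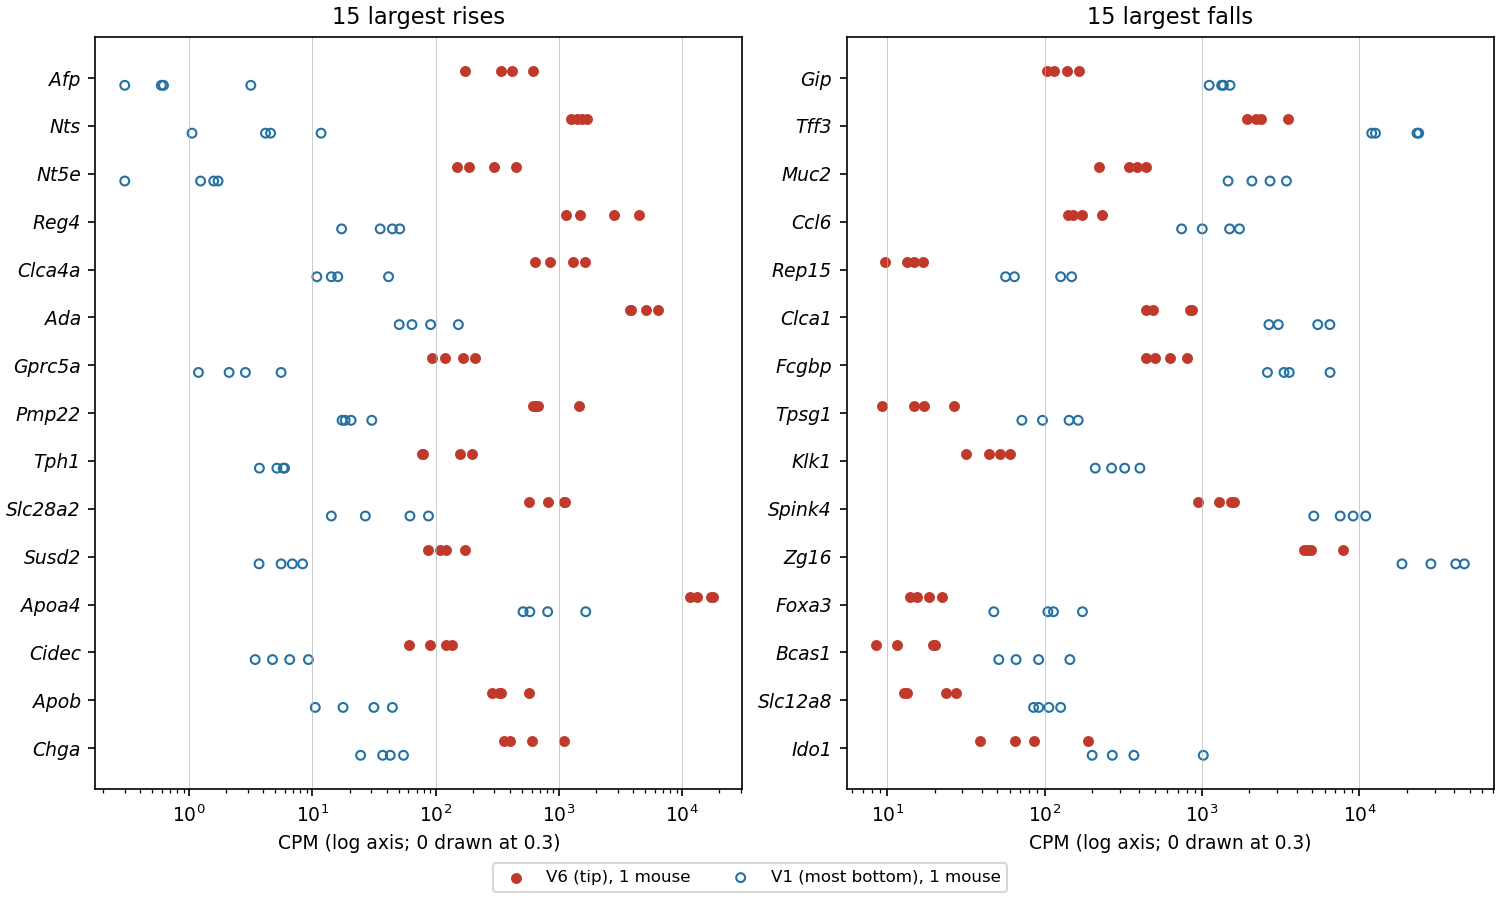
CPM of the 15 largest rises (left panel) and 15 largest falls (right panel) in each mouse on log axes, V6 filled above and V1 open below, with 0 drawn at 0.3. V6 and V1 libraries do not overlap for any of the 30 genes.

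Most genes of purine breakdown and uptake were higher in V6. Of them, 13 of 20 tested genes rose and 2 fell (median 1.31; 22 listed), against 26.7% and 24.7% of all genes, and Nt5e, used in the sort, is 1 of those that rose. Ada, adenosine deaminase, which turns adenosine into inosine, had 6383, 3862, 5091 and 3792 CPM in V6 of mice 1, 2, 3 and 4, against 50.6, 90.9, 153 and 64.2 CPM in V1. Its lowest V6 library was far above its highest V1 library. The difference was 5.79 ± 0.33, or 55.5-fold (adjusted p = 1.3e-10), at chromosome 2, 163726584 to 163750239. Slc28a2, a concentrative nucleoside transporter gene, had 898 ± 258 CPM in V6 and 47.6 ± 33.3 in V1 (SD, n = 4 each; 4.42 ± 0.38). Pnp, which splits inosine, rose by 1.28 ± 0.13, Gda, guanine deaminase, by 2.18 ± 0.14, and Xdh, which makes uric acid, by 1.65 ± 0.27. Enpp3, an ectonucleotide pyrophosphatase gene, rose by 3.52 ± 0.33, and Adora2b, an adenosine receptor gene, by 2.79 ± 0.32. Adk, which returns adenosine to AMP, and Hprt, which salvages hypoxanthine, did not pass, at -0.32 ± 0.18 and -0.15 ± 0.12. Xdh, Enpp3, Adora2b, Adk and Hprt were named after their values were seen.

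Genes of fat absorption rose almost as a whole. Of the genes of fatty acid uptake and chylomicron assembly, 28 of 31 tested genes rose and 0 fell (median 1.41; 32 listed). Apoa4, an apolipoprotein of chylomicrons, had 17167, 11584, 17816 and 13295 CPM in V6 of mice 1, 2, 3 and 4, against 512, 580.5, 1650.5 and 809.8 CPM in V1. The groups did not overlap in any mouse, with a difference of 4.21 ± 0.20 (adjusted p = 3.1e-16). Apob, the structural protein of the chylomicron, averaged 383 ± 129 CPM in V6 and 26.1 ± 15.1 in V1 (SD, n = 4 each; 3.95 ± 0.29). Apoa1 was the most abundant transcript of V6, at 35916 ± 8135 CPM in V6 and 6374 ± 3273 in V1 (SD, n = 4 each; 2.61 ± 0.16). Apoc3, an inhibitor of lipoprotein lipase, rose by 3.38 ± 0.17, and Cidec, a lipid droplet protein gene, by 4.09 ± 0.23. The transcription factor gene Creb3l3, known to drive apolipoprotein genes, averaged 752 ± 196 CPM in V6 and 127 ± 24.6 in V1 (SD, n = 4 each; 2.56 ± 0.14). Plin2, a lipid droplet coat gene, did not pass, at 45.2 ± 4.75 CPM in V6 and 45.4 ± 1.52 in V1 (SD, n = 4 each). The acyl-CoA synthetase gene Acsl3 was the member with a further rise from V4 to V6 (1.66 ± 0.29, adjusted p = 5.0e-04), while the median of the list was 1.41 from V1 to V4 and -0.0092 from V4 to V6. Plin2 and Acsl3 were named after their values were seen.

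Genes of digestion at the brush border did the same. Of the brush-border hydrolase genes, 18 of 19 tested genes rose and 0 fell (median 1.87; 20 listed), Dpp4 among those that rose. Treh, trehalase, rose by 2.62 ± 0.16, Alpi, intestinal alkaline phosphatase, by 2.30 ± 0.15, and Mme, neprilysin, by 2.53 ± 0.17. Anpep, aminopeptidase N, was the most abundant of the list, at 1628 ± 488 CPM in V6 and 446 ± 187 in V1 (SD, n = 4 each). Sis was the only tested member that did not pass in edgeR, and Sis and Tmprss15 span the list's range. Tmprss15, enteropeptidase, was low, with a rise of 4.23 ± 0.73 from 85 UMIs over the 4 V6 libraries against 5 over the 4 V1 libraries. Both were named after their values were seen.

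Transporters followed with smaller medians and some members in the other direction. Of amino acid and peptide transporter genes, 12 of 16 tested genes rose and 2 fell (median 0.96; 18 listed). Slc6a19, a neutral amino acid transporter of the brush border, had 299.8 ± 52.2 CPM in V6 and 44.3 ± 4.78 in V1 (SD, n = 4 each; 2.76 ± 0.15). Slc15a1, the peptide transporter, rose by 2.30 ± 0.19 and Slc7a15 by 2.94 ± 0.19. Slc1a5, a glutamine transporter gene, fell, with 9.80 ± 1.59 CPM in V6 and 39.7 ± 13.5 in V1 (SD, n = 4 each; -1.99 ± 0.29). Of sugar transport and fructose metabolism genes, 13 of 17 tested genes rose and 1 fell (median 0.97; 17 listed). Slc5a1, the sodium-glucose cotransporter, averaged 1526 ± 308 CPM in V6 and 644 ± 213 in V1 (SD, n = 4 each; 1.27 ± 0.19). Slc2a1, the glucose transporter of most growing cells, fell (-1.10 ± 0.30). Of vitamin A genes, 8 of 10 tested genes rose and 0 fell (median 0.91; 18 listed), led by the retinol-binding protein gene Rbp2 (2.15 ± 0.14) and the carotene-cleaving enzyme gene Bco1 (3.16 ± 0.35). Without mouse 4, 5 vitamin A genes rose.

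Ion and mineral transport was mixed. Of ion and bicarbonate transport genes, 18 of 29 tested genes rose and 6 fell (median 0.99; 32 listed). The paired ligand genes of the guanylate cyclase receptor moved apart: Guca2b, uroguanylin, had 5073 ± 1138 CPM in V6 and 1615 ± 429 in V1 (SD, n = 4 each; 1.65 ± 0.14), while Guca2a, guanylin, had 583 ± 137 CPM in V6 and 1387 ± 395 in V1 (-1.26 ± 0.16). Guca2a also stands in the goblet cell list. Slc9a2, a sodium-proton exchanger gene, rose by 2.05 ± 0.15, and Scnn1a, a subunit of the epithelial sodium channel, fell (-2.05 ± 0.33). Of iron, calcium and zinc genes, 6 of 16 tested genes rose and 2 fell (median 0.29; 23 listed), or 3 higher without mouse as a block. The phosphate transporter gene Slc34a2 rose by 3.15 ± 0.29 and the calcium pump gene Atp2b1 by 1.35 ± 0.19. Fth1, the ferritin heavy chain, did not pass, at 4800.1 ± 1473 CPM in V6 and 4209.6 ± 1553 in V1 (SD, n = 4 each).

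**Figure D4:**
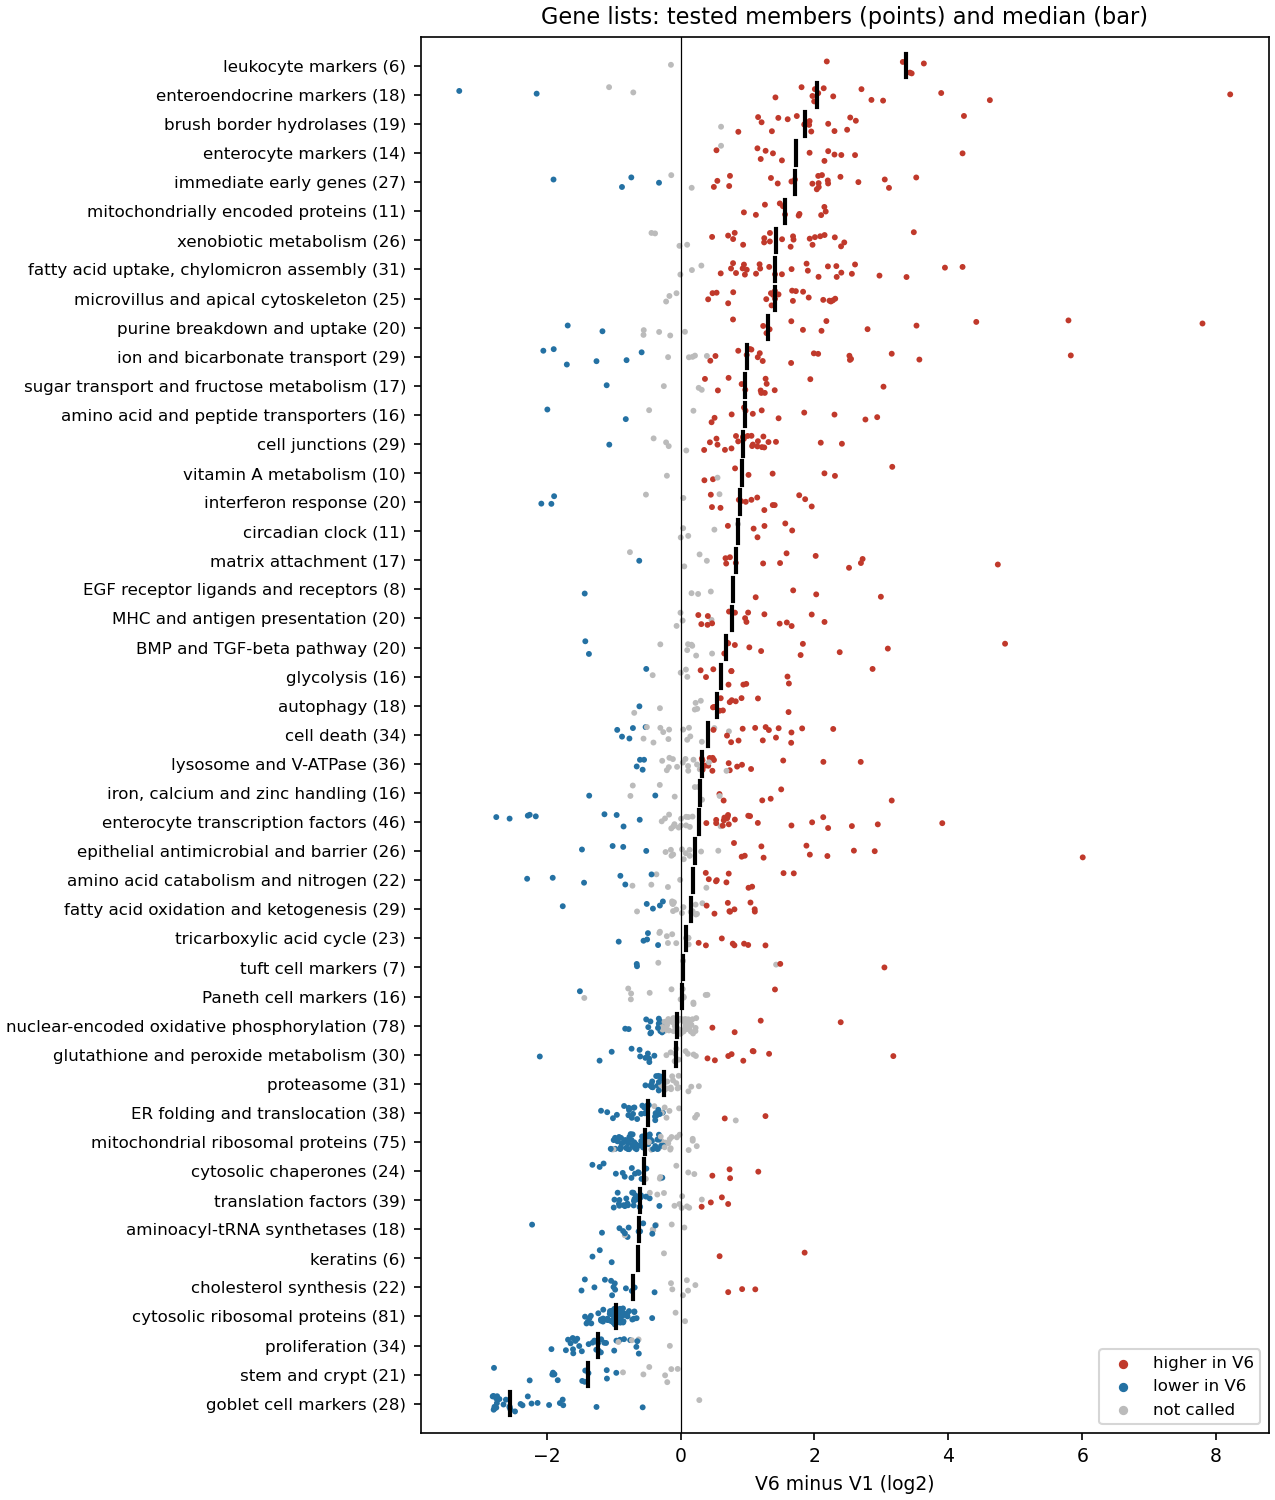
Log2 difference of V6 minus V1 for each tested member of each gene list (points, coloured where the adjusted p was under 0.05), with the median as a bar and the number tested in brackets. Medians run from 3.37 for leukocyte markers, with 6 genes tested, to -2.55 for goblet cell markers, with 28. Low genes, such as those of the leukocyte list, could pass the filter through the zones where they were high.

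Structural genes of the enterocyte surface rose. Of microvillus and apical cytoskeleton genes, 22 of 25 tested genes rose and 0 fell (median 1.41; 25 listed). Espn, which bundles the actin core of microvilli, had 462 ± 66.7 CPM in V6 and 99.4 ± 26.3 in V1 (SD, n = 4 each; 2.24 ± 0.13), and the protocadherin gene Cdhr2, which links microvilli, 781 ± 90.1 CPM in V6 and 162 ± 49.2 in V1 (SD, n = 4 each; 2.31 ± 0.16). Plec, the linker protein plectin, rose by 2.22 ± 0.15. The 6 keratin genes did not move as a group. Krt20, of mature villus cells, rose (1.85 ± 0.16), while Krt18 (-1.21 ± 0.14) and Krt19 (-1.03 ± 0.16) fell. Krt8, the partner of Krt18 in the same filaments, rose by 0.58 ± 0.12, but scaled by total UMIs its difference was 0.24 (adjusted p = 0.0686). Of cell junction genes, 24 of 29 tested genes rose and 1 fell (median 0.93; 31 listed), among them Ceacam20 (2.41 ± 0.20), Pkp3 of desmosomes (1.25 ± 0.14) and Epcam (1.15 ± 0.13). Cldn2, a pore-forming claudin of the crypt, was the member that fell (-1.06 ± 0.21). Of matrix attachment genes, 12 of 17 tested genes rose and 1 fell (median 0.83; 24 listed). Lama3, a chain of laminin in the basement membrane, had 79.7, 45.4, 87.0 and 43.0 CPM in V6 of mice 1, 2, 3 and 4, against 1.58, 1.72, 2.47 and 3.57 CPM in V1. All V6 libraries were above all V1 libraries (4.74 ± 0.29, adjusted p = 1.7e-15). Its partner chain gene Lamb3 rose by 2.69 ± 0.27, and Itgb5, an integrin subunit gene, by 2.52 ± 0.21.

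Most immediate early genes were higher in V6. They are switched on within minutes by growth signals and by stress, including that of cell isolation. Of them, 21 of 27 tested genes rose and 4 fell (median 1.71; 34 listed). Jun, a subunit of AP-1, had 356, 144, 222 and 158 CPM in V6 of mice 1, 2, 3 and 4, against 25.3, 41.7, 18.6 and 11.9 CPM in V1. The groups did not overlap (3.11 ± 0.31, adjusted p = 2.9e-07). Its partner gene Fos had 220.1 ± 95.5 CPM in V6 and 54.0 ± 26.0 in V1 (SD, n = 4 each; 1.97 ± 0.27). Ifrd1, a stress-responsive regulator gene, rose by 3.05 ± 0.23, Sgk1, a kinase gene, by 2.66 ± 0.18, and Dusp6, which switches off ERK, by 2.39 ± 0.18. Myc, a growth regulator of crypt cells, went the other way, with 9.67 ± 3.13 CPM in V6 and 38.7 ± 28.3 in V1 (SD, n = 4 each; -1.90 ± 0.27). Jun and Fos were named after their values were seen.

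Transcription factor genes split. Of them, 22 of 46 tested genes rose and 9 fell (median 0.28; 49 listed). Prdm1, known for its role in intestinal maturation, rose by 3.91 ± 0.43, with 124 UMIs over the 4 V6 libraries against 9 over the 4 V1 libraries. Hnf4a, a driver of enterocyte genes, had 230.0 ± 12.8 CPM in V6 and 143 ± 19.1 in V1 (SD, n = 4 each; 0.69 ± 0.13), while Cdx2, which sets intestinal identity, did not pass (-0.091 ± 0.13). Its relative Cdx1 fell (-1.14 ± 0.12). The goblet cell factors Spdef (-2.75 ± 0.27) and Foxa3 (-2.55 ± 0.22) fell. Prdm1, Hnf4a, Cdx1 and Cdx2 were named after their values were seen. Scaled by total UMIs, 12 factors rose in place of 22.

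Signalling genes of the BMP and EGF pathways changed in both directions. BMP signals are known to be strong at the villus tip and EGF receptor signals in the crypt. Of BMP and TGF-beta pathway genes, 11 of 20 tested genes rose and 2 fell (median 0.67; 25 listed). The ligand gene Bmp8b rose by 4.85 ± 0.58, with 88 UMIs over the 4 V6 libraries against 3 over the 4 V1 libraries. Bmp1, a protease gene of matrix processing, rose by 3.10 ± 0.40. The inhibitors Smad7 (62.2 ± 25.8 CPM in V6 and 17.0 ± 4.28 in V1; SD, n = 4 each; 1.83 ± 0.19) and Skil (2.38 ± 0.23) rose, and the target Id3 did not pass (0.17 ± 0.13). Bmp3 (-1.37 ± 0.34) and Tgif1 (-1.42 ± 0.32) fell. Of EGF receptor ligands and receptors, 4 of 8 tested genes rose and 1 fell (median 0.79; 14 listed). Hbegf, a ligand gene, rose by 2.99 ± 0.35, the receptor gene Egfr by 2.03 ± 0.29 and the feedback inhibitor gene Errfi1 by 1.68 ± 0.18. Of circadian clock genes, 6 of 11 tested genes rose and 0 fell (median 0.86; 19 listed), or 3 without mouse as a block and 3 scaled by total UMIs. Nr1d1 rose by 1.56 ± 0.22.

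Genes of antigen presentation were higher in V6, where leukocyte transcripts were too, at a summed 424 ± 65.0 CPM in V6 and 170.0 ± 53.5 CPM in V1 (SD, n = 4 each). Of MHC and antigen presentation genes, 16 of 20 tested genes rose and 0 fell (median 0.77; 23 listed), among both class I (H2-K1, 1.59 ± 0.14) and class II genes (H2-Aa, 1.66 ± 0.14). B2m, the light chain of class I molecules, had 3858 ± 752 CPM in V6 and 1646 ± 483 in V1 (SD, n = 4 each; 1.25 ± 0.13). Scaled by total UMIs, 10 rose and 3 fell. H2 genes are close copies, and their separate values are uncertain. The leukocyte list held 35 genes, of which 31 were in the table, 31 of them with a UMI in V6 and 30 with one in V1, and 6 passed the filter. Of these, 5 of 6 tested genes rose and 0 fell (median 3.37; 35 listed). The filter asked for enough UMIs in only as many libraries as 1 zone holds. Low genes could thus pass through the zones where they were high. The count and median are therefore no measure of the whole list, whose sum above takes in members that did not pass. Gzma, a granzyme of intraepithelial lymphocytes, had 70.6, 76.4, 108 and 95.8 CPM in V6 of mice 1, 2, 3 and 4, against 1.58, 2.86, 16.7 and 14.9 CPM in V1, with no overlap (3.43 ± 0.64). Ccl5, a T cell chemokine gene, was among the most variable between mice, with 134, 136, 130.1 and 113 CPM in V6 of mice 1, 2, 3 and 4, against 3.16, 2.29, 29.7 and 17.8 CPM in V1. The V6 libraries lay close together, the V1 libraries differed widely, and the groups did not overlap (3.45 ± 0.62). Ptprc, the general leukocyte marker CD45, had 11 UMIs over the 4 V6 and 3 over the 4 V1 libraries. The part of these cells in the antigen presentation result was not tested.

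Interferon-response and barrier genes moved in both directions. Of interferon-response genes, 14 of 20 tested genes rose and 3 fell (median 0.89; 26 listed), or 9 higher without mouse as a block. Isg15 rose by 1.96 ± 0.21 and Irf7 by 1.25 ± 0.15. Ifitm2 (-1.89 ± 0.17) and Ifitm3 (-2.08 ± 0.26), which restrict virus entry, fell. Of antimicrobial and barrier genes, 11 of 26 tested genes rose and 4 fell (median 0.22; 35 listed). Lgals3, a galectin of the apical surface, rose, with 2514 ± 878 CPM in V6 and 416 ± 125 in V1 (SD, n = 4 each; 2.59 ± 0.17). Lgals2 fell (-1.47 ± 0.14). Muc3, a membrane mucin gene, rose by 2.90 ± 0.20, and Duoxa2, which matures the hydrogen peroxide-making dual oxidase, by 1.93 ± 0.17. Lypd8, known to keep flagellated bacteria off the epithelium, fell (-1.02 ± 0.15). Reg3b, an antibacterial lectin gene, was among the 5 most abundant transcripts of both zones and did not pass, at 23538 ± 5365 CPM in V6 and 21396 ± 8086 in V1 (SD, n = 4 each; 0.13 ± 0.21). Of xenobiotic metabolism genes, 22 of 26 tested genes rose and 0 fell (median 1.43; 31 listed), such as Cyp3a11 (3.48 ± 0.19) and Cyp2d26 (2.30 ± 0.13), both of families with close copies. Of glutathione and peroxide genes, 9 of 30 tested genes rose and 11 fell (median -0.072; 32 listed), or 6 lower without mouse as a block. Over all tested genes 26.7% rose and 24.7% fell, so these counts are not read as a trait of the list. Gpx3 rose by 3.18 ± 0.27 and Gsta4 fell (-2.10 ± 0.18).

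Enteroendocrine cells are known to switch hormones as they climb, and the part of this in the values here was not tested. Genes of these cells gave both the largest hormone rise and the largest fall of the comparison. The list held 31 genes, of which 18 were tested. Of these, 14 of 18 tested genes rose and 2 fell (median 2.03; 31 listed). As with the leukocyte list, low genes could pass the filter through the zones where they were high. Nts, neurotensin, had 1545, 1695, 1257 and 1400.3 CPM in V6 of mice 1, 2, 3 and 4, against 1.05, 4.57, 11.8 and 4.16 CPM in V1. Its lowest V6 library was 106.9-fold above its highest V1 library (8.21 ± 0.87, adjusted p = 9.1e-07; chromosome 10, 102481756 to 102490486). Gip, the glucose-dependent insulinotropic peptide of K cells, had 166, 138, 115 and 103 CPM in V6 of mice 1, 2, 3 and 4, against 1505, 1110.0, 1367 and 1332 CPM in V1. Its V6 and V1 libraries did not overlap, and it was 9.89-fold lower in V6 (-3.31 ± 0.72, adjusted p = 0.00120; chromosome 11, 96024545 to 96030831). Tph1, the serotonin-making enzyme of enterochromaffin cells, had 128 ± 59.5 CPM in V6 and 5.15 ± 1.02 in V1 (SD, n = 4 each; 4.62 ± 0.28). Sct, secretin, was the most abundant of the list, at 1659 ± 319.7 CPM in V6 and 402 ± 145 in V1 (SD, n = 4 each; 2.06 ± 0.37). Chga, of secretory granules, rose by 3.89 ± 0.36, and Resp18 by 3.03 ± 0.30. Ucn3, a peptide of the urocortin family, had 69 UMIs over the 4 V6 libraries and 0 over the 4 V1 libraries. Gcg, the proglucagon gene, and Sst, somatostatin, did not pass (-0.71 ± 0.73 and -1.07 ± 1.43). Fabp5 was the other member that fell (-2.15 ± 0.41).

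By gate, the rise of these genes lay between V4 and V6. The gates rest on CD73 and CD26, and where on the villus the enteroendocrine cells sat was not tested. The sum of the whole list averaged 2484 CPM in V1, 698.9 CPM in V4 and 6738 CPM in V6. Among the 18 tested genes the median was -1.50 from V1 to V4 and 3.40 from V4 to V6. Of them, 13 were higher in V6 than in V4, where 1.35% of all genes were. Low genes could pass the filter through V6, so this count and these medians are no measure of the whole list. Pyy, peptide YY of L cells, had 363 ± 236 CPM in V6 and 85.1 ± 45.2 in V1 and 3.97 CPM on average in V4 (V6 minus V4 6.53 ± 0.80, adjusted p = 1.5e-04). Cck, cholecystokinin, had 981 ± 106 CPM in V6 and 227 ± 153 in V1 and 59.5 CPM in V4 (V6 minus V4 4.17 ± 0.69, adjusted p = 0.00295; SD, n = 4 each for both genes). V6 was thus highest and V4 lowest of the 3 zones for both genes. Gip was lower in V4 than in V1 (-2.88 ± 0.72) and did not pass above V4 (-0.43 ± 0.72). Pyy and Cck were named after their values were seen. V6 minus V4 and V4 minus V1 share the V4 libraries.

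The 250 bases before the gene start are shown for Nts and Gip, the enteroendocrine genes that differed most in each direction, chosen after their values were seen, with each match to the AP-1 motif TGANTCA or the GATA motif AGATAA in capitals. Sequences are from RefSeq on GRCm38.p6. Nts is printed without the 68 bases nearest its start, which lie inside the gene in GENCODE M21.
Nts, chr10:102490487-102490668, minus strand: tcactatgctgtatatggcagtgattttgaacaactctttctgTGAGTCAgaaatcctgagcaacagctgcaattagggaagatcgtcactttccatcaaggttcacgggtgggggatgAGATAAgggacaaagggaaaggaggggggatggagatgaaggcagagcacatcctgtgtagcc
Gip, chr11:96024295-96024544, plus strand: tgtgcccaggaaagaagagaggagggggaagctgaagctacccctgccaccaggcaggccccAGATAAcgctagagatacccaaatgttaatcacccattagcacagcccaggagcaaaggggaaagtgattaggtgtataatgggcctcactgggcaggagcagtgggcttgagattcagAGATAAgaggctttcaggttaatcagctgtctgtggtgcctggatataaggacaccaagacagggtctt
The Nts stretch held 1 AP-1 match, 207 to 201 bases before the start, and 1 GATA match, 131 to 126 before it. The Gip stretch held GATA matches 188 to 183 and 69 to 64 bases before the start and no AP-1 match. Searched on both strands of the same window, AGATAA stood in 6.39% of promoters of genes that rose, 6.49% of those that fell, 6.09% of those of tested genes and 9.99% of all promoters in the table. TGANTCA stood in 6.89%, 3.81%, 4.65% and 6.75% of the same sets. CAAAGTCCA, an HNF4 motif, stood in 0.83%, 0.224%, 0.472% and 0.384%. A match says only that these letters are in the window.

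Goblet cell genes fell almost as a list. Of them, 27 of 28 tested genes fell and 0 rose (median -2.55; 30 listed). Muc2, the gel-forming mucin, had 223, 386, 344 and 439 CPM in V6 of mice 1, 2, 3 and 4, against 1463, 3435, 2703 and 2074 CPM in V1. The groups did not overlap (-2.79 ± 0.30, adjusted p = 8.4e-07; 6.93-fold lower). Zg16, a lectin that binds bacteria in mucus, was the most abundant transcript of V1, at 5495 ± 1617 CPM in V6 and 33576 ± 12478 in V1 (SD, n = 4 each; -2.56 ± 0.27). Tff3, the trefoil peptide that stabilises mucus, fell (-2.80 ± 0.29), as did Clca1 (-2.75 ± 0.30), Fcgbp (-2.74 ± 0.28) and Spink4 (-2.61 ± 0.31). Of the 15 largest falls, Gip, Slc12a8 and Ido1 alone were outside this list. Slc12a8, a transporter gene, had 19.3 ± 7.35 CPM in V6 and 102 ± 18.3 in V1 (SD, n = 4 each; -2.36 ± 0.25). Ido1, which breaks down tryptophan, had 65.1, 187, 38.9 and 86.0 CPM in V6 of mice 1, 2, 3 and 4, against 369, 1019, 269 and 200.4 CPM in V1. V6 was lower in each mouse, while the level in either zone differed widely between mice (-2.29 ± 0.38, adjusted p = 9.4e-05). Tspan13 was the tested member of the list that did not pass (0.28 ± 0.13), named after its value was seen.

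Stem cell and proliferation genes were lower in V6. Of stem and crypt genes, 14 of 21 tested genes fell and 0 rose (median -1.38; 27 listed), among them Sox9, a progenitor factor (6.27 ± 3.51 CPM in V6 and 34.4 ± 30.9 in V1; SD, n = 4 each; -2.25 ± 0.31), Smoc2 (-1.92 ± 0.28) and Kcnq1 (-1.88 ± 0.25). Lgr5, the defining stem cell gene, did not pass, at 11.9 ± 4.88 CPM in V6 and 13.9 ± 4.44 in V1 (SD, n = 4 each; -0.23 ± 0.31), nor did Olfm4 (-0.86 ± 0.61). Of proliferation genes, 30 of 34 tested genes fell and 0 rose (median -1.23; 34 listed). Mcm6, a subunit of the replicative helicase, had 18.9 ± 6.48 CPM in V6 and 60.1 ± 34.1 in V1 (SD, n = 4 each; -1.61 ± 0.21), Ccnb2, a mitotic cyclin, fell (-1.57 ± 0.21) and Birc5 likewise (-1.24 ± 0.19). Ccnd2 was the most abundant, at 127 ± 11.3 CPM in V6 and 251 ± 65.7 in V1 (SD, n = 4 each).

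Most genes of protein synthesis fell. Of cytosolic ribosomal protein genes, 79 of 81 tested genes fell and 0 rose (median -0.96; 82 listed). Rps19, of the small subunit, had 664, 727, 355 and 567 CPM in V6 of mice 1, 2, 3 and 4, against 2157, 1965, 1113 and 1083 CPM in V1. The groups did not overlap (-1.43 ± 0.13, adjusted p = 8.1e-11). Rplp0 was the most abundant, at 1389 ± 215 CPM in V6 and 2963 ± 395 in V1 (SD, n = 4 each; -1.09 ± 0.14). Of mitochondrial ribosomal protein genes, 56 of 75 tested genes fell and 0 rose (median -0.53; 75 listed). Of translation factor genes, 25 of 39 tested genes fell and 4 rose (median -0.60; 39 listed), with Eef1g at -0.99 ± 0.12 and Eif3l at -0.94 ± 0.12, while Eif6, which acts on the large ribosomal subunit, rose (0.71 ± 0.11). Of aminoacyl-tRNA synthetase genes, 12 of 18 tested genes fell and 0 rose (median -0.62; 18 listed), or 7 lower without mouse as a block. Wars, the tryptophan enzyme, fell most (27.9 ± 4.46 CPM in V6 and 134 ± 47.9 in V1; SD, n = 4 each; -2.22 ± 0.16). By gate, these falls lay between V1 and V4. Medians for cytosolic ribosomal proteins were -0.99 from V1 to V4 and 0.018 from V4 to V6. Goblet cell genes had a median of -2.40 over the same stretch from V1 to V4, and a sum of 12699 ± 2901 CPM in V6 and 76943 ± 25787 CPM in V1, and their part in the result was not tested.

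Protein folding and sterol synthesis were lower in V6 too. Of endoplasmic reticulum genes, 27 of 38 tested genes fell and 2 rose (median -0.49; 39 listed). Pdia6, a disulfide isomerase gene, fell (-1.19 ± 0.15), as did Ddost of the glycosylation complex (-1.01 ± 0.14). P4hb, the most abundant isomerase gene, rose (1905 ± 213 CPM in V6 and 1233 ± 346 in V1; SD, n = 4 each; 0.66 ± 0.12), and so did Ddit3, of the unfolded protein response (1.27 ± 0.23). Goblet cells are rich in this machinery, and the part of their sum in the result was not tested. Of cytosolic chaperone genes, 14 of 24 tested genes fell and 4 rose (median -0.55; 29 listed), with Hspd1 at -1.15 ± 0.14 and Dnajb1, a heat shock gene, at 1.16 ± 0.17 in the other direction. Of proteasome genes, 14 of 31 tested genes fell and 0 rose (median -0.24; 31 listed), with Psmb2 at -0.52 ± 0.10. The proteasome falls numbered 7 without mouse as a block, 8 without mouse 3, 5 without mouse 4 and 28 scaled by total UMIs. Of cholesterol synthesis genes, 13 of 22 tested genes fell and 3 rose (median -0.71; 25 listed), such as Fdft1 (-1.43 ± 0.19), Cyp51 (-1.48 ± 0.21) and Hmgcs1 (-0.98 ± 0.16). Without mouse 4, 8 of them fell. Insig2, which holds back sterol synthesis, rose (1.12 ± 0.21).

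Mitochondrially encoded respiratory genes rose. Of the mitochondrially encoded protein genes in the list, 11 of 11 tested genes rose and 0 fell (median 1.56; 11 listed). mt-Co1, of cytochrome oxidase, had 2870.1, 3279, 1642 and 1765 CPM in V6 of mice 1, 2, 3 and 4, against 547, 616, 454 and 492 CPM in V1. All V6 libraries were above all V1 libraries (2.15 ± 0.17, adjusted p = 3.2e-11). mt-Cytb was the most abundant, at 32374 ± 6114 CPM in V6 and 14159 ± 5498 in V1 (SD, n = 4 each; 1.26 ± 0.18). mt-Nd4l overlaps its neighbour mt-Nd4. Gm29216, at 21786 ± 10609.6 CPM in V6 and 5301 ± 1306 in V1, has a provisional name. It is annotated as an unprocessed pseudogene on chromosome 1, not as a mitochondrial gene. Nuclear copies of mitochondrial genes could share their reads, which makes the separate values uncertain. Of nuclear-encoded oxidative phosphorylation genes, 4 of 78 tested genes rose and 17 fell (median -0.060; 79 listed). The share that fell was near that of all tested genes (24.7%). The count that fell was 57 scaled by total UMIs, 9 without mouse as a block, and between 7 (without mouse 3) and 29 (without mouse 2) with 1 mouse left out. Cox6b2, a cytochrome oxidase subunit gene, rose (2.39 ± 0.25), as did Cox7a1 (1.20 ± 0.19) and Cycs, cytochrome c (0.81 ± 0.16).

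Carbon metabolism showed rises in glycolysis, while the other lists held genes that rose and genes that fell. Over all tested genes 26.7% rose and 24.7% fell. The tricarboxylic acid cycle and fatty acid oxidation counts were not far from these shares. Of glycolysis genes, 11 of 16 tested genes rose and 1 fell (median 0.60; 22 listed), or 7 higher without mouse as a block, led by the lactate transporter gene Slc16a3 (84.5 ± 12.6 CPM in V6 and 11.9 ± 4.68 in V1; SD, n = 4 each; 2.87 ± 0.19) and the regulatory enzyme gene Pfkfb4 (1.62 ± 0.17). Of tricarboxylic acid cycle genes, 8 of 23 tested genes rose and 5 fell (median 0.081; 24 listed), with citrate synthase, Cs, at 1.01 ± 0.12 and Idh2 at -0.92 ± 0.19. Of fatty acid oxidation and ketogenesis genes, 9 of 29 tested genes rose and 5 fell (median 0.15; 29 listed), with Hadh, of mitochondrial beta-oxidation, at 0.80 ± 0.11. Of amino acid and nitrogen genes, 10 of 22 tested genes rose and 6 fell (median 0.19; 28 listed), with the alanine transaminase gene Gpt at 1.69 ± 0.14 and Aldh1b1 at -0.90 ± 0.12. The tricarboxylic acid, fatty acid oxidation and amino acid counts that fell were 12, 12 and 11 scaled by total UMIs, more in each list than the 5, 5 and 5 that rose. Without mouse as a block, 0 fatty acid oxidation genes and 3 tricarboxylic acid cycle genes fell, and 5 amino acid genes rose. The fatty acid oxidation genes that fell were 2 without mouse 1, 1 without mouse 3 and 3 without mouse 4.

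Genes of cell death, lysosomes and autophagy leaned upward. Of cell death genes, 15 of 34 tested genes rose and 5 fell (median 0.40; 41 listed). Gsdmd, the pore-forming gasdermin, had 550.1 ± 37.1 CPM in V6 and 159 ± 36.0 in V1 (SD, n = 4 each; 1.82 ± 0.14). Its rise stood beside those of the survival genes Mcl1 (1.47 ± 0.14) and Xiap (2.28 ± 0.26) and of the cell cycle inhibitor gene Cdkn1a (1.23 ± 0.14). Of lysosome and V-ATPase genes, 17 of 36 tested genes rose and 4 fell (median 0.32; 37 listed), with the acid lipase gene Lipa at 2.13 ± 0.21 and Npc1 at 2.69 ± 0.29. Without mouse as a block 11 lysosome genes rose. Without mouse 1, 9 lysosome genes rose, and scaled by total UMIs 8 rose and 10 fell. Of autophagy genes, 11 of 18 tested genes rose and 1 fell (median 0.54; 22 listed), or 3 higher scaled by total UMIs, with the receptor genes Optn (1.61 ± 0.12) and Sqstm1 (1.16 ± 0.17).

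Paneth and tuft cell genes showed no shared direction as lists. From V1 to V6 the Paneth sum fell from 25609 to 5684 CPM in mouse 2 and rose from 7851 to 14736 CPM in mouse 4. With 1 mouse left out its mean log2 ratio ran from -0.95 to 0.078, so 4 mice do not resolve it. Of Paneth cell genes, 1 of 16 tested genes rose and 1 fell (median 0.016; 22 listed). Defa24, the most abundant defensin gene of the list, had 5491, 2244, 6420.0 and 4882 CPM in V6 of mice 1, 2, 3 and 4, against 11036, 11045, 7365 and 3178 CPM in V1. The groups overlapped (-0.46 ± 0.64, adjusted p = 0.574). Defensin genes are close copies, and their separate values are uncertain. Of tuft cell genes, 2 of 7 tested genes rose and 2 fell (median 0.038; 21 listed), near the 26.7% and 24.7% of all tested genes. Trpm5, the taste channel of tuft cells, rose (13.7 ± 5.67 CPM in V6 and 1.59 ± 0.320 in V1; SD, n = 4 each; 3.05 ± 0.53), while Dclk1, a defining tuft gene, had 6 UMIs over the 4 V6 and 6 over the 4 V1 libraries and was not tested. No gene of the stromal and endothelial or of the erythrocyte list passed the filter.

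Most of the V6 to V1 difference lay between the gates V1 and V4. This stretch spans more zones than that from V4 to V6, and the length of villus in either was not measured. From V1 to V4 the genes that rose had a median of 0.91 and those that fell -0.88, while from V4 to V6 the medians were 0.051 and -0.042. Set against V1, V4 differed in 50.4% of tested genes, with 2391 higher (25.6%) and 2312 lower (24.8%). Set against V4, V6 differed in 1.42%, with 126 genes higher (1.35%) and 6 lower (0.0643%). The difference between both stretches was tested itself, with the sign of each change kept. A fall below V4 that levelled off above it thus counts as larger above V4, and a rise that levelled off as smaller. By this measure 929 genes (9.96%) had a larger signed change above V4 than below it, and 1267 (13.6%) a smaller one. Scaled by total UMIs these were 1635 and 778, so that the balance turned round. Without mouse as a block they were 224 and 469. Without mouse 3 they were 443 and 777, and without mouse 4 the first count was 538. The V4 libraries differed between mice. V4 of mouse 4 was the smallest of the 24 libraries, at 806541 UMIs. V4 of mouse 3 had the highest mitochondrial share, at 13.2%. On the first principal component V4 lay above V6 in mice 3 (55.26 against 44.42) and 4 (37.2 against 27.25). It lay below V6 in mice 1 (9.502 against 30.71) and 2 (0.4094 against 8.423). Of the genes that rose from V1 to V6, 1273 of 2488 had their highest zone mean in V6, and 2212 their lowest in V1. Of those that fell, 2198 of 2303 were highest in V1 and 1165 lowest in V6.

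**Figure D5:**
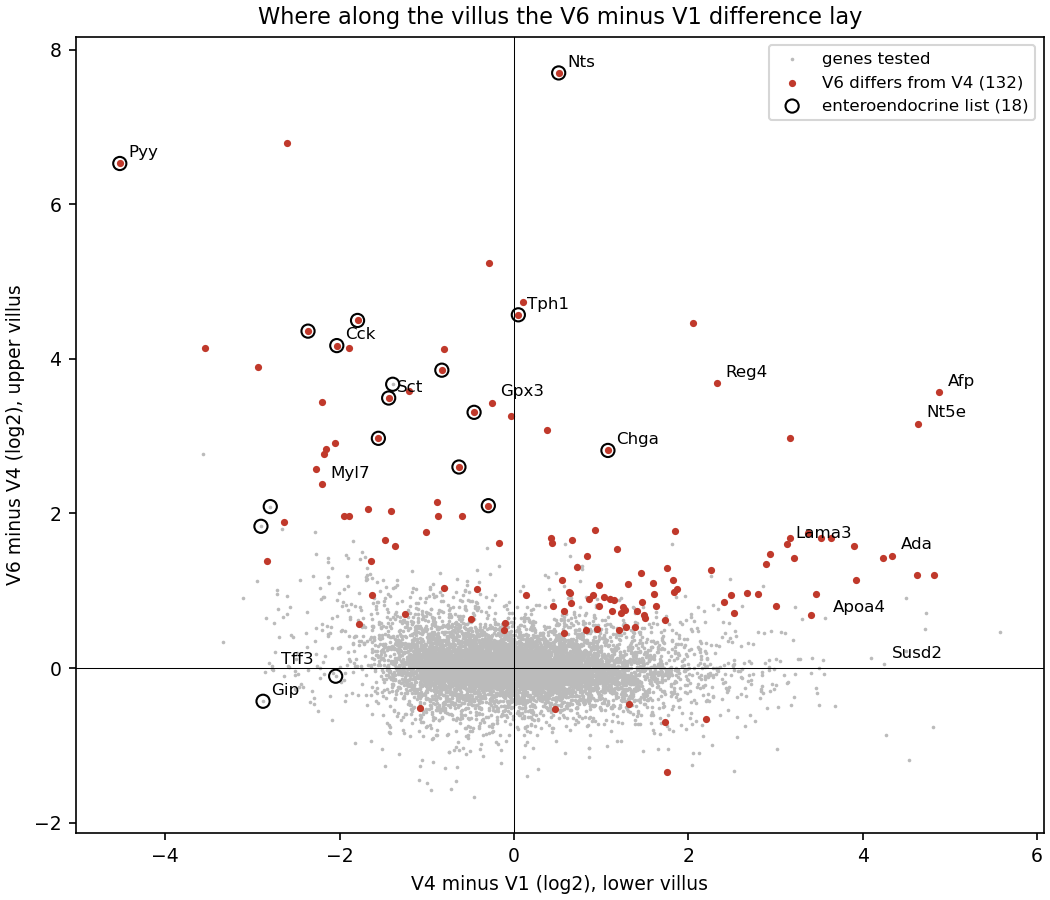
Log2 difference of V6 minus V4 against that of V4 minus V1 for each tested gene, both of which use the V4 libraries, with genes that differed between V6 and V4 in red and the 18 tested enteroendocrine genes ringed. Most genes spread along the horizontal axis, and 13 of the 18 enteroendocrine genes lie in red above it. Low genes of that list could pass the filter through the zones where they were high.

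Some genes were lower in V4 than in both V1 and V6. Myl7, a myosin light chain gene best known from the heart, had 120.4, 108, 59.4 and 77.5 CPM in V6 of mice 1, 2, 3 and 4, against 70.6, 85.8, 82.9 and 79.1 CPM in V1, so that V6 and V1 overlapped (0.19 ± 0.15, adjusted p = 0.323). In between it changed by -2.20 ± 0.20 from V1 to V4 and by 2.38 ± 0.20 from V4 to V6 (test of the difference, adjusted p = 2.8e-11). Hepacam2, a cell adhesion gene, changed by -2.83 ± 0.24 and then by 1.38 ± 0.26 (adjusted p = 2.6e-07), and was still lower in V6 than in V1 (-1.44 ± 0.21, adjusted p = 2.4e-06). Krt18 changed by -1.77 ± 0.14 and then by 0.56 ± 0.14 (adjusted p = 1.0e-08), and it too was lower in V6 than in V1 (-1.21 ± 0.14, adjusted p = 3.7e-09). Slc6a19 changed by 2.96 ± 0.15 below V4 and -0.20 ± 0.13 above it (adjusted p = 1.1e-11), Treh by 2.84 ± 0.16 and -0.23 ± 0.14 (adjusted p = 2.8e-11), and Apoc3 by 3.26 ± 0.16 and 0.12 ± 0.15 (adjusted p = 3.0e-11). The sorting gene Nt5e rose on both stretches, by 4.64 ± 0.42 and 3.16 ± 0.21. Ada did so too, by 4.34 ± 0.31 and 1.46 ± 0.27 (adjusted p = 0.00584 for V6 against V4), as did Lama3, by 3.13 ± 0.35 and 1.61 ± 0.21 (adjusted p = 4.2e-06). Egfr (1.31 ± 0.29, adjusted p = 0.00665) and Muc3 (1.03 ± 0.18, adjusted p = 0.00169) were also higher in V6 than in V4.

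Some transcripts were detected in V6 or in V1 and not in the other. No UMI in any V1 library and at least 1 in V6 was seen for 890 genes, and the reverse for 924. The most abundant of the first kind was Ucn3, at 10.7 UMIs per 1000000 over the 4 V6 libraries, which is at least 21.8-fold higher than the floor of 3 UMIs over the 4 V1 libraries. Pla2g7, the platelet-activating factor hydrolase gene, had 56 UMIs in V6 and was at least 17.7-fold higher. Snap25, of the vesicle fusion machinery of nerve and endocrine cells, had 49 and was at least 15.5-fold higher. Ly6d, a surface protein gene, had 28 UMIs and was at least 8.83-fold higher. In the other direction Ubxn11 had 18 UMIs over the 4 V1 libraries and was at least 6.35-fold lower in V6. Msi1, an RNA-binding protein gene of intestinal progenitors, had 17 and was at least 5.99-fold lower, and Bag2, a co-chaperone gene, had 12 and was at least 4.23-fold lower. These bounds cover counting error only, for genes chosen because they had no UMI in 1 of both zones.

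Other genes held level between bottom and tip on the TMM scale. For 954 genes the 95% interval of the difference lay within 0.5 of 0. Among genes of at least 500 CPM, those with the interval closest to 0 all serve oxidative phosphorylation: Atp5c1, Atp5a1 and Atp5j2 of ATP synthase, Ndufa3 of complex I and Cox5a of cytochrome oxidase. Atp5a1 had 933 ± 73.4 CPM in V6 and 950.3 ± 118 in V1 and Ndufa3 612 ± 55.1 CPM in V6 and 618 ± 53.8 in V1 (SD, n = 4 each). Scaled by total UMIs the difference of Atp5c1 was -0.33 (adjusted p = 0.00656) and that of Atp5j2 -0.34 (adjusted p = 0.0109), so these values depend on the scaling.

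A few genes differed strongly between zones but unequally between mice. Hsd17b11, a steroid dehydrogenase gene, had 1724, 125, 1531 and 1279 CPM in V6 of mice 1, 2, 3 and 4, against 128, 141, 802 and 642 CPM in V1. V6 was above V1 in 3 mice and below it in the other (1.45 ± 0.46, adjusted p = 0.0159). Without mouse as a block the difference was 1.44 (adjusted p = 0.120) and it was not called. Nor was it called in the 8 libraries alone, at 1.29 (adjusted p = 0.147), or without mouse 1, at 0.72 (adjusted p = 0.202), without mouse 3, at 1.67 (adjusted p = 0.0550), or without mouse 4, at 1.65 (adjusted p = 0.0503). Hbegf had 204, 55.4, 146 and 73.0 CPM in V6 of mice 1, 2, 3 and 4, against 8.96, 23.4, 14.2 and 8.92 CPM in V1. The groups did not overlap (2.99 ± 0.35, adjusted p = 1.6e-06). Zc3h13, an RNA-binding protein gene, averaged 97.1 ± 53.2 CPM in V6 and 17.4 ± 7.23 in V1 (SD, n = 4 each; 2.34 ± 0.41). Mir6236, a locus named as a microRNA, averaged 1102 ± 1286 CPM in V6 and 82.9 ± 46.7 in V1 (3.42 ± 0.82).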

How the data were processed

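The authors deposited a table of UMI counts per gene for all 24 libraries (mcSCRB-seq per the labels), with raw counts of each library in a column; its title credits zUMIs. Per the submitters' processing notes, bcl2fastq 2.15.0.4 and the mouse build GRCm38 were used. For the aligner, the annotation, the use of strand and reads shared by close copies, the settings are not given in the sources used. UMI counting collapses PCR copies, and the floors for undetected transcripts cover counting error only. The intervals of the differences come from the quasi-likelihood fit and so also take in spread between libraries.

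The counts were analysed with edgeR 4.0.16 and limma 3.58.1 in R 4.3.3, with figures and summaries from Python 3.11.15, numpy 2.4.6, pandas 2.3.3 and matplotlib 3.10.9. Of 17811 genes, 131 had no count, and filterByExpr, grouped by zone with a count of 10 and a total of 15 as minima, kept 9328. TMM scaling, a robust quasi-likelihood fit of zone and mouse over all 24 libraries (15 residual degrees of freedom) and Benjamini-Hochberg adjustment gave the contrasts V6 minus V1, V4 minus V1, V6 minus V4 and the difference between the last 2, with a threshold of 0.05. The test was checked on simulated counts. Few genes changed in them, so this is no check of the scaling or of the error rate where many genes change. Sums over lists were compared by a two-sided exact permutation of the signs of the 4 within-mouse differences. Mouse was a block because each mouse gave 1 library of every zone. Deviations of V6 and V1 from their zone means correlated within mice 1, 2, 3 and 4 at 0.23, 0.305, 0.446 and 0.306 across genes, which are not independent replicates. Separate mice were the replicates.

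The comparison, the gene lists and the naming rule were chosen with earlier results of these data known. Genes were named as the 15 largest changes each way (adjusted p under 0.05, at least 50 CPM, the same direction in 4 mice, no provisional symbol), and per list up to 4 members of smallest adjusted p, the most abundant member, up to 2 against the majority and defining markers. The 5 most abundant genes per zone, the 5 called genes most variable between mice, the 5 most abundant genes absent from either zone, the 5 clearest differences between the upper and lower stretch each way and the 5 genes of at least 500 CPM closest to 0 were also eligible. Some genes that the rule names are not reported here. Alternatives were no block, the 8 libraries alone, other scaling, filters, removal of mitochondrial or goblet genes, DESeq2 1.42.0, limma-voom, thinning and leaving out each mouse. Promoter sequences were taken from RefSeq on GRCm38.p6 and coordinates from GENCODE M21 on GRCm38.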

Additional observations from a re-analysis of the deposited data

Results flagged for a closer look

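Of 158 groups of 4 libraries checked, 7 held 1 library far from the other 3, and chance alone sets about 1 in 20 groups apart. Clca4a had 41.5 CPM in V1 of mouse 3, against 10.9 to 16.1 in V1 of the other mice. Mcm6 had 28.6 CPM in V6 of mouse 2, against at most 16.4 in the others. Wars had 205.3 CPM in V1 of mouse 2, against 104.3 to 121.2 in the others. Zg16 had 7906 CPM in V6 of mouse 4, against 4462 to 4893 in the others. The summed tuft cell markers reached 197.7 CPM in V6 of mouse 1, against 97.4 to 109.6 in the others. Both zones of mouse 1 stood apart in summed erythrocyte markers, at 25.6 CPM in V6 and 50.1 CPM in V1, against at most 3.54 CPM in V6 and 1.86 CPM in V1 of the others.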

How the results depend on the processing

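The number of genes higher in V6 was 1882 with no replicate block (1737 lower), and the 3619 calls of that fit were all among the 4791. The block is the paired analysis by mouse. Without it, 261 of 280 named genes kept their direction and side of the threshold and 19 no longer passed. Scaled by total UMIs, 1525 genes were higher and 3789 lower, and with a mean of at least 50 CPM 972 were higher and 910 lower of 2707 tested. The first of these scales also gave 1635 genes with a larger and 778 with a smaller signed change above V4. Its log2 ratios of summed transcripts were -0.29 for tuft cells, 0.10 for stromal and endothelial cells and -0.74 for stem and crypt genes. On the TMM scale these ratios were 0.042, 0.44 and -0.41. Scaling by total UMIs moved the median of all genes to -0.34, so named genes just above 0 changed sign by its construction. Of the genes that changed sign, Atp5c1 (-0.33), Atp5j2 (-0.34) and Ldha (-0.043) were called on 1 scale and not on the other. Among named genes that kept their sign, 7 no longer passed when scaled by total UMIs and 6 newly passed. Genes with a larger and smaller signed change above V4 numbered 224 and 469 with no replicate block, and the smaller ones 635 at 50 CPM. With 1 mouse left out, genes higher in V6 numbered 2053 to 2308 and genes lower 1925 to 2156. Larger signed changes above V4 then numbered 443 to 918 and smaller ones 777 to 1184. No gene called in V6 against V1 passed the threshold in the opposite direction under any alternative listed. The 4 mice limit the exact tests to p = 0.125, and genes of a few UMIs carry wide errors.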
